A study of Mus musculus with 8 samples.

Results

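The genes described here are 38 components of protein folding in the endoplasmic reticulum (ER) and of the unfolded protein response, taken from a table of 37980 mouse gene rows. They were listed by their known function and looked up in the table by their gene identifiers. Pdia4, a protein disulphide isomerase, was chosen by its rise in multipotent progenitors (MPPs) of NA mice against those of wild-type mice, and the other 37 genes were listed to show whether it moved alone or together with the machinery it belongs to. The values of Pdia4 are therefore a description and carry no test. All 38 genes had a row, and 37 of them reached 10 normalised counts in 4 or more of the 8 libraries, the requirement for the test across 11451 genes. Sdf2l1 was below that level.

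MPPs were sorted from mouse bone marrow as Lin- CD48- ckit+ Sca1+ CD135+ CD150- cells, and each library was made from the amplified cDNA of 1000 cells. Both groups had 4 libraries, called NA1 to NA4 (NA MPPs) and WT1 to WT4 (WT MPPs) by the numbers in their titles. NA mice (NA LSL/+; Vav-Cre) carry the Nup98-Hoxa10hd fusion gene, which joins the nucleoporin Nup98 to the homeodomain of Hoxa10 and is expressed from the Rosa26 locus once Vav-Cre, active in blood cells, has acted. WT MPPs came from age-matched CD45.2 mice without the fusion, and mice of both groups were C57BL/6. The WT mice are not described as carrying Vav-Cre, so the fusion and Cre cannot be told apart. The ages of the mice, and whether the libraries of a group came from separate animals, were not given in the sources used here.

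Proteins that enter the secretory pathway pass through the ER membrane by the Sec61 channel, are held by chaperones such as BiP (the product of Hspa5), calnexin and calreticulin, and receive their disulphide bonds from the protein disulphide isomerase (PDI) family. When unfolded protein accumulates, the sensors IRE1 (Ern1), PERK (Eif2ak3) and ATF6 start the unfolded protein response: IRE1 splices Xbp1 mRNA, PERK favours translation of ATF4, and a cleaved piece of ATF6 enters the nucleus. Proteins that fail to fold are returned to the cytosol and destroyed by ER-associated degradation (ERAD), whose ligase is the product of Syvn1.

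Values are normalised counts, that is, gene counts that had been divided by a size factor of each library. The estimated depth lay between 3876907 and 4916988 reads per library. The sorted cells held the transcripts that define MPPs, with Kit, Flt3, Cd34 and Ly6a summing to 7337 to 7655 in NA MPPs and 7486 to 7891 in WT MPPs. Of the 4, Ly6a alone passed the test (log2 fold change -0.28, adjusted p = 0.0257 by limma, 0.164 without the fourth library of each group). Transcripts of 7 plasma cell genes, a cell type rich in ER, summed to 227 to 243 in NA MPPs and 385 to 640 in WT MPPs, and the 2 that could be tested, Sdc1 and Ighm, were both lower in NA MPPs (adjusted p = 0.00972 and 0.000383 by limma, and 0.097 and 0.00993 without the fourth libraries). The other 5 had means below 10 in both groups, higher in NA MPPs for Jchain, Igkc, Prdm1 and Tnfrsf17 and lower for Mzb1, and none of the 7 was at 0 in all libraries. The neutrophil lineage list (8 genes) summed to 1390 to 1709 in NA MPPs and 1750 to 2629 in WT MPPs, with Elane at 0. Most of that sum was Prtn3, at a mean of 1523 in NA MPPs and 2028 in WT MPPs (adjusted p = 0.0181 by limma). Mpo measured 13.2 and 37.0 (adjusted p = 0.0422 by limma), and the other genes of the list were not called or not tested. Without the fourth libraries the adjusted p by limma was 0.0890 for Prtn3 and 0.143 for Mpo. Monocyte or macrophage genes (7) summed to 33.2 to 73.7 in NA MPPs and 104 to 124 in WT MPPs. Erythroid genes (6) summed to 4.62 to 8.46 and 15.9 to 111. Mast cell or basophil genes (6), most of the sum being Gata2, were higher in NA MPPs, at 1068 to 1257 against 813 to 1014. Ranges overlapped for megakaryocyte genes (206 to 288 and 216 to 290), stroma or endothelium genes (516 to 759 and 450 to 596) and B cell genes (101 to 228 and 181 to 263). Cd48, which the sort selects against, was lower in NA MPPs, at a mean of 17.7 against 56.1 (adjusted p = 0.00711 by limma, 0.0676 without the fourth libraries). Slamf1, which encodes CD150 and is also selected against, measured 19.7 and 20.9 and was not called. The T cell list stayed at or below 21.6 in every library, and Cd3e, Cd3d, Cd3g and Cd8a were at 0. Donor sex also differed between the groups, since transcripts of the Y chromosome were found in NA MPPs and Xist in WT MPPs, so sex and genotype cannot be told apart for any gene described here. The fourth library of each group lay closest to a weighted sum of the other 3 libraries of its group, at a median distance of 0.115 (NA4) and 0.0783 (WT4) on the log2 scale, where the others lay between 0.112 and 0.198. WT4 was close to the 0.067 that counting alone gives, and whether it is an independent library was not tested. Calls of the main results are therefore also given without the fourth libraries.

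Pdia4 was present in all NA MPP libraries and almost absent from WT MPPs. This thiol-disulphide oxidoreductase of the ER lumen (ENSMUSG00000025823, GRCm38, chr6:47796141-47813430, minus strand) helps to form and rearrange disulphide bonds in newly made proteins. Its normalised counts were 125.1, 188.0, 152.3 and 166.5 in NA1 to NA4, and 0.888, 0, 0 and 1.78 in WT1 to WT4. The estimated reads behind them were 134, 200, 165 and 141 in NA MPPs and 1, 0, 0 and 2 in WT MPPs. Every NA library was thus far above every WT library, and no WT library held more than 2 reads. The mean was 158 ± 26.4 (SD, n = 4) in NA MPPs, at least 52.1-fold higher than a floor of 3 reads in each WT library, a bound that covers counting error only. In bulk libraries, fewer cells with a transcript and less of it in each cell cannot be told apart. Per kilobase of exon, the level of Pdia4 in NA MPPs was 65.9 ± 11.0, rank 26 among the 38 genes and next to Pdia3 at 66.0 ± 13.2. In WT MPPs it was 0.278 ± 0.354, the lowest of the 38. The length used counts all annotated exons of a gene and can exceed that of its main transcript. Ranks between genes therefore depend on the annotation.

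The other 37 genes did not share that pattern. Among 36 tested genes other than Pdia4, 5 were higher in NA MPPs (Hspa5, Dnajc3, Dnajb9, Canx and Syvn1), 1 was lower (Creld2) and 30 did not pass the test (limma, Benjamini-Hochberg adjusted p below 0.05 over all 11451 genes). That is 16.7% of the 36 genes, beside 17.9% of all tested genes, of which 10.1% were higher and 7.87% lower in NA MPPs. The share of ER genes called was thus close to that of all genes. The 4 NA and the 4 WT values did not overlap for 9 of the 36 genes (25.0%), against 22.0% of all tested genes. Their median log2 fold change was 0.08, with 22 above 0 and 14 below, and the median of all tested genes was -0.01. Summed over all members other than Pdia4, the normalised counts were 0.480 ± 0.0269% (SD, n = 4) of the library in NA MPPs and 0.437 ± 0.0219% in WT MPPs. No p is given for the median or the sum, since the genes were chosen with results known. Without the fourth libraries 4.52% of all genes passed the test, and of the ER genes other than Pdia4, Hspa5 alone passed.

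**Figure D1:**
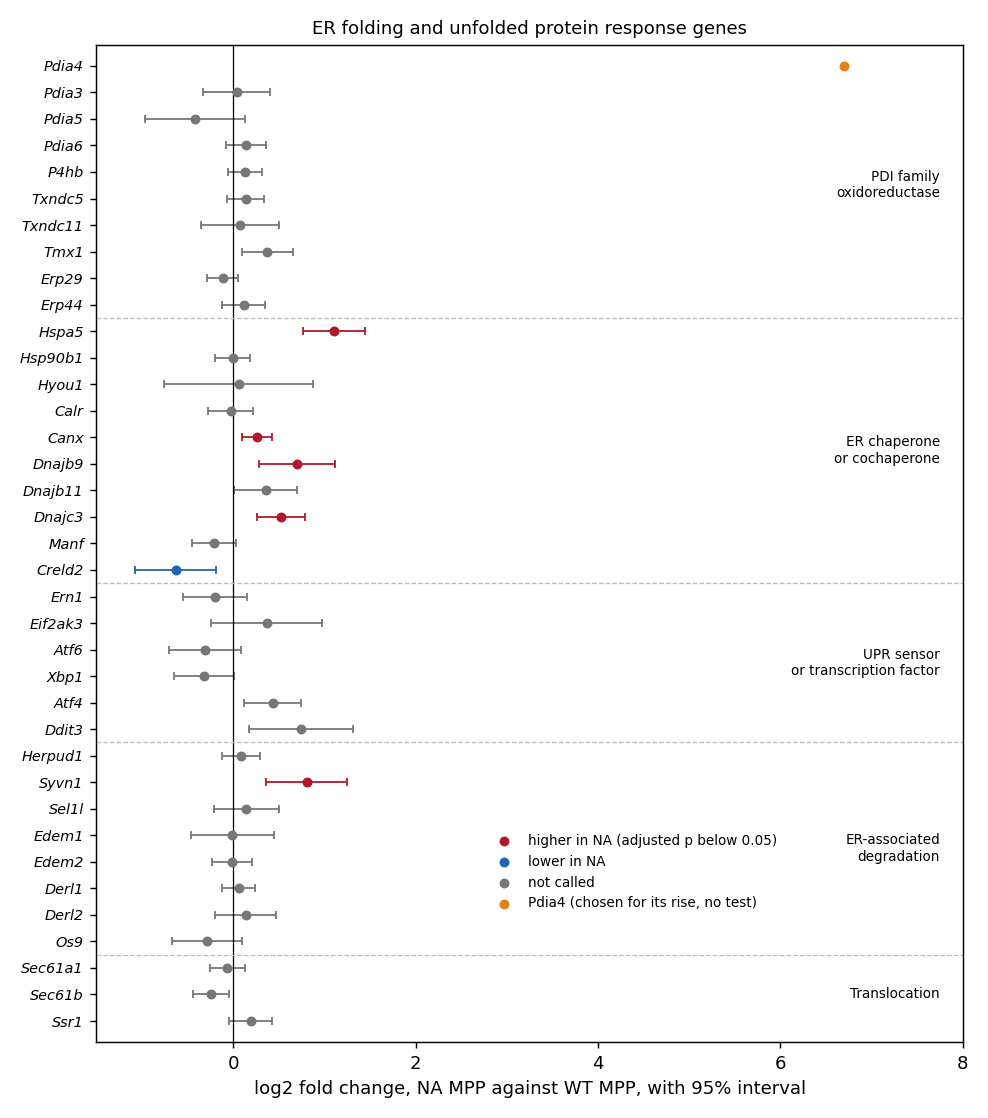
Log2 fold change of NA MPPs against WT MPPs (x axis, with 95% interval) for the 37 tested genes (y axis), grouped by role. Pdia4 stands at 6.70 on the log2(normalised count + 1) scale, without interval or test, and the other 36 genes lie between -0.63 and 1.10, with 5 called higher (red) and 1 called lower (blue).

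The promoters of these genes were searched for the ER stress element (ERSE), a sequence that ATF6 and XBP1 are known to read. RefSeq promoter sequences of GRCm38.p6, from 250 bases before to 50 bases after a gene start, were found for 32 of the 38 genes, and Atf6, Derl1, Erp29, Hyou1, Manf and Sec61a1 were not matched. The ERSE was searched on both strands as CCAAT, 9 bases of any kind and CCACG, without counting variant forms or sites outside the window. This exact form was found in 8 of the 32 genes (25.0%), and in 37 of all 27025 genes with a promoter (0.137%). Counted by promoter, it was in 39 of 32851 (0.119%). The 32 genes were listed for their part in ER folding and its stress response, so their higher share is a description. All matches in the 8 genes are printed because 5 of the 6 called genes other than Pdia4 are among them, with CCAAT and CCACG in capitals and each written in the 5′ to 3′ direction in which it reads as CCAAT first.
Hspa5: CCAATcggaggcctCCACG
Calr: CCAATgagggtcgaCCACG
Hsp90b1: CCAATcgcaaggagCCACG
Hsp90b1: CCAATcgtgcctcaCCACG
Canx: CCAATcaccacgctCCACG
Pdia6: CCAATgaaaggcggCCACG
Dnajc3: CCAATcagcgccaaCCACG
Creld2: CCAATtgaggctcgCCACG
Syvn1: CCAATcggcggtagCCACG
The Hspa5 match lies at chr2:34772025-34772043 on the plus strand, with 46 bases between it and the gene start. The Syvn1 match (chr19:6046532-6046550, plus strand) has 25 bases between it and the start, the Pdia6 match (chr12:17266491-17266509, plus strand) 79 and the Dnajc3 match (chr14:118937827-118937845, plus strand) 86. The Canx match is at chr11:50325800-50325818 on the minus strand, 126 bases from the start, and all of these run in the direction of their gene. In Calr (chr8:84847075-84847093, plus strand, 143 bases) and Creld2 (chr15:88819520-88819538, minus strand, 107 bases) the match runs against the gene. Hsp90b1 holds 1 match in each direction, at chr10:86705638-86705656 on the minus strand (193 bases) and chr10:86705533-86705551 on the plus strand (88 bases).

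Of the 8 genes with an ERSE match, 4 were higher in NA MPPs (Hspa5, Canx, Dnajc3 and Syvn1), 1 was lower (Creld2) and Calr, Hsp90b1 and Pdia6 did not pass the test. Of the 22 tested genes whose promoter held no match, Pdia4 left out, 1 (Dnajb9) was higher and none was lower. Genes called were 62.5% of the 8 and 4.55% of the 22, beside 17.9% of all tested genes. Hspa5 alone of these genes passed without the fourth libraries. The calls were known when the matches were chosen for printing. Sdf2l1, also without a match, was not tested. The median log2 fold change was 0.20 in the 8 genes and 0.12 in the 22. Outside the list, 29 genes held an ERSE match, 5 of them were tested and none passed. These counts are descriptions, without a test. Of the other elements, ERSE-II (ATTGG, 1 base and CCACG) was found in Dnajb11 and Herpud1 and in 0.0365% of all promoters, and neither gene was called. The UPRE (TGACGTGG) was found in Txndc5 and Txndc11 and in 0.676% of promoters, and the CARE, read by ATF4 (TGATGNAA), in Txndc5 and Herpud1 and in 3.97% of promoters.

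The promoters of Hspa5, the called gene with the largest rise, and of Pdia4 are printed whole to set a promoter with a match beside one without. The Hspa5 promoter is chr2:34771840-34772139 on the plus strand with the ERSE in capitals, and the Pdia4 promoter is chr6:47813463-47813762 on the minus strand. None of the 4 elements was found in the window of Pdia4, which says only that these letters are not in it. That window follows the RefSeq start and ends before the start of Pdia4 in the coordinates given above (47813430).
Hspa5 promoter: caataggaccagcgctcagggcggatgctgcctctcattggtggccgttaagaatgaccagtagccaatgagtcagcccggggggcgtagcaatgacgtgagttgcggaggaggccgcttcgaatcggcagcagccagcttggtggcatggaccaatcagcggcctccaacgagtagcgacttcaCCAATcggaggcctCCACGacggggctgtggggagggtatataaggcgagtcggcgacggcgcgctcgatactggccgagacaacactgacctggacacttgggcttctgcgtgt
Pdia4 promoter: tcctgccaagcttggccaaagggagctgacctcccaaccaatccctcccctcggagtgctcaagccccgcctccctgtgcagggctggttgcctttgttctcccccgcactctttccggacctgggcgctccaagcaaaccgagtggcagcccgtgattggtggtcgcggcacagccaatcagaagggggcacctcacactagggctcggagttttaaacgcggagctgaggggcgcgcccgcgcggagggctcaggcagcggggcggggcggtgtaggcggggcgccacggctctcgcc

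None of the 9 other PDI family genes was called, beside 17.9% of all tested genes. Their log2 fold changes lay between -0.42 (Pdia5) and 0.37 (Tmx1), with a median of 0.11, 7 above 0 and 2 below. The highest upper limit of their 95% intervals was 0.66, for Tmx1, and the lowest lower limit was -0.97, for Pdia5. Pdia3, the glycoprotein-directed isomerase that works with calnexin and calreticulin, had normalised counts of 169.9, 260.4, 179.1 and 219.7 in NA1 to NA4 and 230.8, 191.4, 154.8 and 229.1 in WT1 to WT4. The 2 groups of Pdia3 overlapped throughout, and its log2 fold change of 0.04 had an interval from -0.33 to 0.41. P4hb, the founding member of the family, measured 1441 ± 99.7 in NA MPPs and 1318 ± 122 in WT MPPs (log2 fold change 0.13, interval -0.06 to 0.32). Pdia6, which also binds BiP, measured 588 ± 50.9 and 534 ± 49.9 (SD, n = 4 in each group).

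Tmx1, a membrane-bound member, came nearest to the threshold. Its normalised counts were 225.0, 234.1, 240.1 and 250.4 in NA1 to NA4 and 194.4, 195.9, 151.4 and 193.5 in WT1 to WT4. All NA values were above all WT values, but the gene missed the threshold (log2 fold change 0.37, adjusted p = 0.0646 by limma). Txndc5, an isomerase with several thioredoxin domains, measured 531 ± 32.4 in NA MPPs and 483 ± 19.3 in WT MPPs. Erp44, which retrieves clients from the Golgi, measured 346 ± 23.5 and 321 ± 28.3, and Erp29, which lacks the redox-active cysteines, 1013 ± 44.6 and 1099 ± 51.5. In each of these 3 genes the groups overlapped. Pdia5 (43.8 ± 2.96 and 61.0 ± 18.8) and Txndc11 (202 ± 7.91 and 200 ± 73.9) varied more among WT libraries than among NA libraries.

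**Figure D2:**
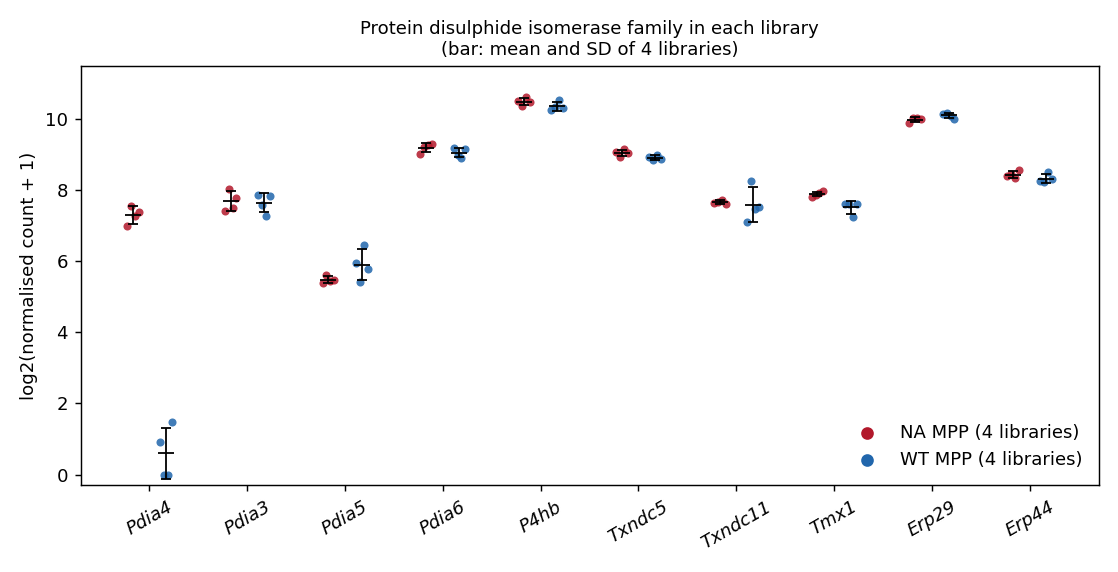
Level of each PDI family gene (x axis) as log2(normalised count + 1) (y axis) in the 4 NA MPP libraries (red) and the 4 WT MPP libraries (blue), with the mean and SD as bars. Pdia4 is close to 0 in WT MPPs and its NA values reach those of Pdia3, whereas the points of the 9 other genes lie at similar heights in both groups, with log2 fold changes between -0.42 and 0.37.

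The chaperones and cochaperones held most of the called genes, 4 higher and 1 lower of 10 tested, beside 17.9% of all tested genes called. Without the fourth libraries 1 of them was called. Hspa5, which encodes BiP, the Hsp70 chaperone of the ER lumen that also holds the sensors inactive, had the largest rise. Its normalised counts were 1522, 2075, 2256 and 1919 in NA1 to NA4 and 686, 1249, 814 and 914 in WT1 to WT4. Every NA library was above every WT library, with NA1 the lowest and WT2 the highest of its group. The means were 1943 ± 313 and 916 ± 241, a ratio of 2.12, and the log2 fold change was 1.10 with an SE of 0.159 (adjusted p = 0.000377 by limma, 0.00581 without the fourth libraries).

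The other rises were of cochaperones of BiP and of calnexin. Dnajc3 (also called P58IPK), a DnaJ cochaperone of BiP and inhibitor of PERK, had 328.6, 430.5, 465.3 and 446.4 in NA1 to NA4 and 291.2, 284.2, 277.8 and 301.9 in WT1 to WT4. Its groups did not overlap, and the WT values were close together while NA1 was nearer to them than the other NA libraries. It rose by 0.52 ± 0.123 (log2 fold change ± SE, adjusted p = 0.0105 by limma). Dnajb9 (ERdj4), which targets BiP clients for degradation and represses IRE1, had 719.7, 805.6, 780.2 and 859.8 in NA MPPs and 285.0, 668.2, 561.3 and 525.6 in WT MPPs. Again all NA values were higher, and WT1 was far below the other WT libraries. The log2 fold change of Dnajb9 was 0.70 ± 0.195 (adjusted p = 0.0243 by limma). Canx, the membrane-bound lectin chaperone calnexin, had 2942, 2918, 2713 and 3044 in NA MPPs and 2189, 2437, 2611 and 2491 in WT MPPs. The groups of Canx were separate but close, with NA3 just above WT3, and the gene rose by 0.26 ± 0.0766 (adjusted p = 0.0322 by limma). Without the fourth libraries the adjusted p was 0.103 for Dnajc3, 0.119 for Dnajb9 and 0.173 for Canx, with log2 fold changes of 0.50, 0.69 and 0.25.

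Creld2, a secreted ER protein with a PDI-like activity, was the single gene called lower. Its normalised counts were 170.8, 140.1, 78.5 and 121.7 in NA1 to NA4 and 188.2, 171.0, 225.4 and 184.7 in WT1 to WT4. The groups of Creld2 barely separated, as NA1 and WT2 were almost equal, and its adjusted p of 0.0497 by limma was at the threshold (log2 fold change -0.63 ± 0.209). It passed in 4 of the 19 other ways of fitting the data.

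The remaining chaperones did not pass the test. Hsp90b1 (GRP94), the Hsp90 of the ER, measured 894 ± 62.6 in NA MPPs and 897 ± 61.4 in WT MPPs, with a 95% interval of the log2 fold change from -0.20 to 0.19. Calr (calreticulin), the soluble partner of calnexin, measured 644 ± 91.6 and 655 ± 68.1, an interval from -0.28 to 0.22. Both intervals lie below the log2 fold change of Hspa5. Dnajb11 (ERdj3), a cochaperone of BiP, measured 199 ± 37.1 and 153 ± 13.6 (log2 fold change 0.35, adjusted p = 0.145 by limma). Manf, a secreted partner of BiP, measured 239 ± 11.0 in NA MPPs and 277 ± 19.6 in WT MPPs without overlap, yet did not pass (adjusted p = 0.219 by limma). Hyou1 (GRP170), a nucleotide exchange factor of BiP, was low in all libraries, 23.0 ± 7.18 and 22.4 ± 8.58, and its interval from -0.76 to 0.87 leaves its change undetermined at this depth. Sdf2l1, a cofactor of ERdj3, had 9.33, 10.3, 30.5 and 7.09 in NA MPPs and 4.44, 4.53, 10.2 and 5.33 in WT MPPs, and was too low for the test.

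None of the 6 sensors and transcription factors was called, and all 6 had overlapping groups. Of all tested genes, 17.9% were called and 22.0% had groups without overlap. The sensor Ern1 had 154.0, 151.3, 237.3 and 191.3 in NA1 to NA4 and 237.9, 192.5, 185.6 and 218.4 in WT1 to WT4 (log2 fold change -0.20, adjusted p = 0.42 by limma). The sensor Eif2ak3 had 36.4, 87.4, 95.1 and 78.0 in NA MPPs and 57.7, 53.2, 47.8 and 57.7 in WT MPPs (0.36, adjusted p = 0.399 by limma). NA1 was below all WT libraries for Eif2ak3, and the other NA libraries were above them. The third sensor, Atf6, had 88.7, 128.8, 158.8 and 120.5 in NA MPPs and 157.1, 171.0, 136.6 and 140.3 in WT MPPs (-0.31, adjusted p = 0.268 by limma). Xbp1, the target of IRE1, had 438.7, 374.1, 360.1 and 330.7 in NA MPPs and 351.6, 626.3, 444.0 and 491.0 in WT MPPs (-0.32, adjusted p = 0.164 by limma). These are gene totals, in which spliced and unspliced Xbp1 mRNA are not separated, and the activity of the sensors was not measured.

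Atf4 and Ddit3, the transcription factors of the PERK branch, lay just outside the threshold. Atf4, which activates amino acid and redox genes, had 2541, 2325, 3058 and 2421 in NA1 to NA4 and 1363, 2385, 2217 and 1824 in WT1 to WT4. WT2 was above NA2 and every other WT library was below all NA libraries, and the log2 fold change was 0.43 ± 0.145 (adjusted p = 0.0527 by limma). Atf4 passed in 8 of the 19 other fits. Ddit3 (CHOP), which acts downstream of ATF4, had 366.9, 542.4, 620.5 and 402.7 in NA MPPs and 164.2, 519.8, 278.9 and 267.2 in WT MPPs. Ddit3 was again high in WT2, and its log2 fold change was 0.74 ± 0.266 (adjusted p = 0.0694 by limma, passing in 2 of the 19 other fits). Per kilobase of all annotated exons, the level of Atf4 was the highest of the 38 genes in both groups. It was 1097 ± 139 in NA MPPs and 826 ± 193 in WT MPPs, and this rank depends on the annotated lengths.

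**Figure D3:**
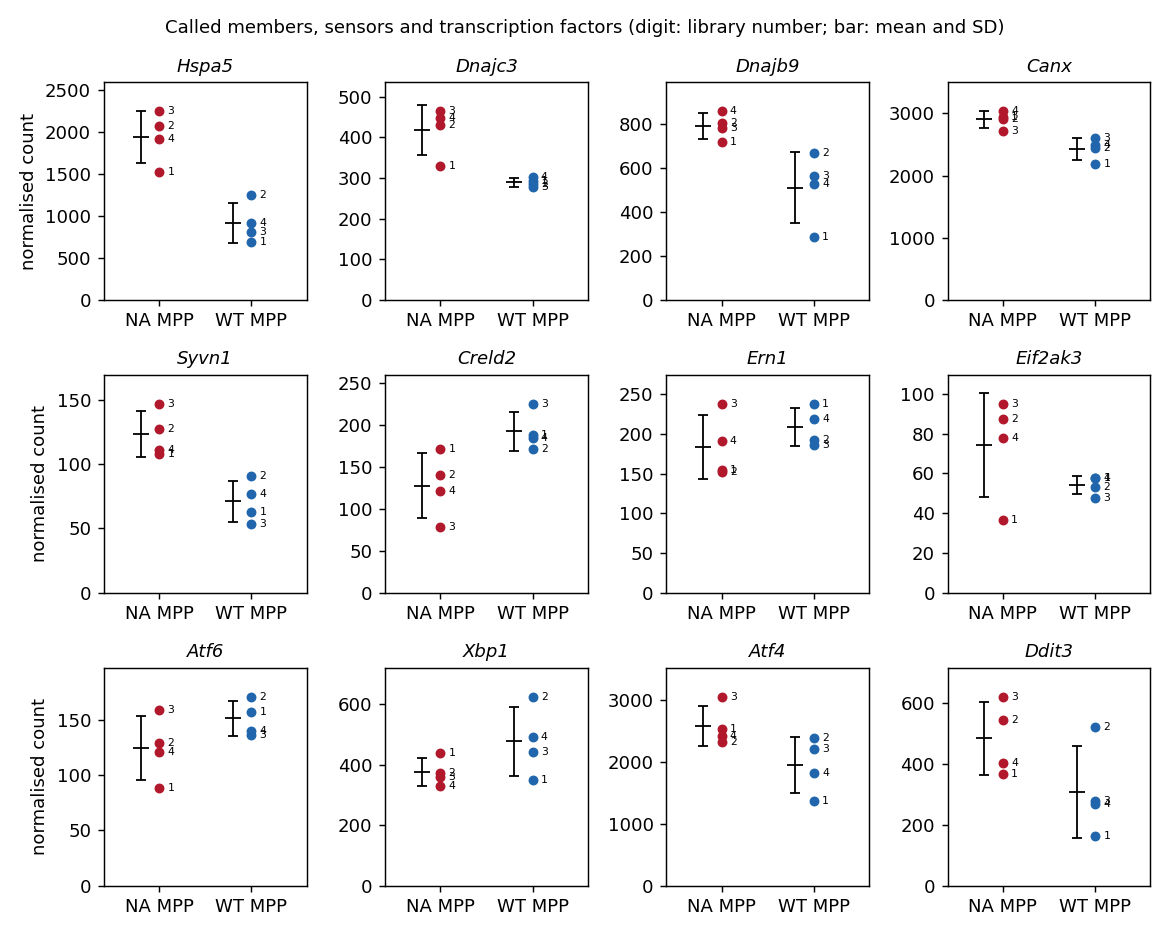
Normalised counts (y axis, from 0) of the 6 called genes other than Pdia4 and of the 6 sensors and transcription factors in the NA MPP and WT MPP libraries (x axis), with the library number beside each point and the mean and SD as bars. The groups are separate for the 6 called genes, by the smallest margin in Creld2, and overlap in all 6 sensors and transcription factors.

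In ERAD, 1 of 8 genes was called (12.5%), close to the 17.9% of all tested genes. Syvn1, which encodes the ubiquitin ligase HRD1 of the ERAD channel, had 107.4, 126.9, 146.8 and 111.0 in NA1 to NA4 and 63.0, 90.6, 53.5 and 76.4 in WT1 to WT4. All NA values of Syvn1 were above all WT values, and it rose by 0.80 ± 0.206 on the log2 scale (adjusted p = 0.0159 by limma, 0.0874 without the fourth libraries). Sel1l, the partner that stabilises HRD1, measured 282 ± 58.7 and 254 ± 42.1, with an interval of the log2 fold change from -0.21 to 0.50. Herpud1, a membrane protein of the same complex that ER stress induces strongly, measured 661 ± 69.6 and 621 ± 35.7 (interval -0.12 to 0.30). The ligase thus passed the test and these partners did not, but the difference between the genes was not tested. The lectins and mannosidase-like proteins that hand over glycoproteins measured 174 ± 53.1 and 206 ± 11.8 for Os9, 115 ± 32.2 and 114 ± 19.7 for Edem1, and 582 ± 46.2 and 588 ± 54.1 for Edem2. The derlins, which form part of the exit channel, measured 825 ± 44.2 and 792 ± 41.1 for Derl1 and 204 ± 34.7 and 185 ± 22.6 for Derl2.

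None of the 3 genes of translocation into the ER was called, beside 17.9% of all tested genes. Sec61b, the beta subunit of the channel, had 608.6, 579.0, 571.5 and 540.9 in NA1 to NA4 and 753.7, 656.8, 664.9 and 644.6 in WT1 to WT4. Its NA values were all below the WT values without passing the test (log2 fold change -0.24, adjusted p = 0.0841 by limma). Sec61a1, the pore subunit, measured 756 ± 26.0 and 792 ± 67.8, and Ssr1, a subunit of the translocon-associated complex, 1060 ± 126 and 929 ± 115.

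The libraries of a group also differed among themselves. Of 37 genes other than Pdia4, NA3 was the highest NA library for 19 and NA1 the lowest for 19, including Hspa5, Dnajc3, Dnajb9, Ddit3 and Syvn1. Among WT libraries, WT2 was the highest for 15 and WT1 the lowest for 15, and the genes of WT2 included Hspa5, Dnajb9, Atf4, Ddit3 and Syvn1. A list of 21 immediate early and dissociation response genes moved with the groups, with 13 of 19 tested genes higher in NA MPPs, none lower and a median log2 fold change of 1.42. Of all tested genes, 10.1% were higher, and 7 of the 19 were called without the fourth libraries. The part of this list in the values of Hspa5 and the other members was not tested, and neither was that of the other cell type markers.

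**Figure D4:**
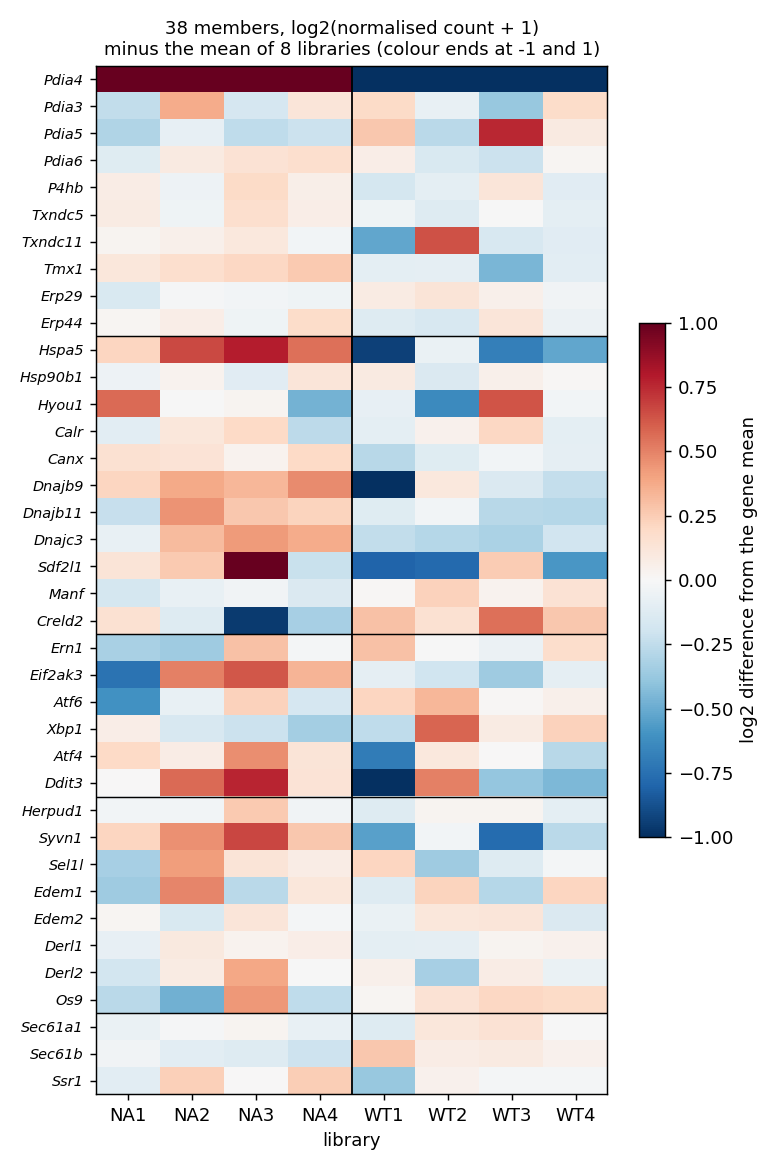
Level of each of the 38 genes (rows, grouped by role) in each library (columns) as log2(normalised count + 1) minus the mean of the gene over 8 libraries, with colours ending at -1 and 1. Pdia4 fills the scale in both directions, and Hspa5, Dnajb9, Ddit3 and Syvn1 are low in WT1 or WT3 and lower in NA1 than in the other NA libraries, whereas most rows show little difference between the groups.

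The wider pathway was described by 125 listed symbols outside the 38, of which 120 were found in the table by symbol, and which cover further PDI, ERAD, signalling and N-glycosylation genes. Of 114 tested, 10 were higher and 8 lower in NA MPPs, 15.8% beside 17.9% of all genes, with a median log2 fold change of 0.04. Cebpb, a transcription factor that pairs with CHOP, had the largest rise at 1.54 ± 0.469 with overlapping groups (adjusted p = 0.0352 by limma). It was followed by Nupr1, a stress-induced chromatin protein (1.38 ± 0.257, adjusted p = 0.0025 by limma), and Mbtps1, the protease that cleaves ATF6 (0.74 ± 0.143, adjusted p = 0.00312 by limma). Normalised counts of Mbtps1 were 603.0, 423.0, 518.9 and 519.7 in NA1 to NA4 and 277.9, 399.8, 272.1 and 293.0 in WT1 to WT4, without overlap, and it was the single gene of the list called without the fourth libraries (adjusted p = 0.0478 by limma).

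Among the genes of that list that passed the test, the largest fall was of Dnajc7, a cytosolic cochaperone (-0.84 ± 0.207, adjusted p = 0.0126 by limma). Next came Uggt1, the folding sensor of the calnexin cycle (-0.64 ± 0.178, adjusted p = 0.024 by limma). Ssr4, a partner of Ssr1 in the translocon, followed (-0.50 ± 0.119, adjusted p = 0.0112 by limma). Ppp1r15a, Trib3 and Asns, named as known targets of ATF4 or CHOP, did not pass the test. They do not stand for all targets of these factors, which were not tested as a set. Nupr1, of the same list, was called higher. Ppp1r15a (GADD34), which reverses the PERK signal, had a log2 fold change of -0.17 (adjusted p = 0.703 by limma), Trib3 of 0.38 (adjusted p = 0.229 by limma) and Asns of -0.64 (adjusted p = 0.116 by limma). Chac1 held at most 11.1 normalised counts in any library and was not tested.

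The genes whose pattern over the 8 libraries was most like that of Pdia4 were not members of this list. Pdia4 is high in NA MPPs and almost absent from WT MPPs, so the correlation mostly reflects how cleanly a gene separates the groups. Pearson r of log2(normalised count + 1) with Pdia4, given as a description over 8 libraries that share their groups, was 0.996 for Eif2s3y and 0.995 for Ddx3y, both on the Y chromosome, and 0.995 for Tnpo1, Mark3 and Plaa. Among the other 36 tested members it was highest for Dnajc3 (0.897, rank 485 of all genes), Hspa5 (0.880, rank 573) and Tmx1 (0.877, rank 587). Genes with at most 3 reads in every library of a group and a mean of at least 50 in the other were few. These were Pdia4, Kdm5d, Ddx3y and Eif2s3y, present in NA MPPs, and Xist, present in WT MPPs. Kdm5d, Ddx3y and Eif2s3y are on the Y chromosome and Xist is on the X chromosome. Under these cut-offs Pdia4 was the sole autosomal gene. It had been chosen for its rise and its values were known, so its place here is a description.

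The genes nearest to Pdia4 on chromosome 6 held too few reads to compare or had no row, and the tested neighbours further away did not share its rise. Of the nearest 3 genes on either side, Rny3, Rny1 and Mir704, which lies within Pdia4, were at 0 in all libraries, Rpl31-ps7 and Rpl35a-ps7 had no row in the table, and Zfp786 held at most 3 reads in any library. Further protein-coding neighbours were added after the values were seen. Ezh2 (chr6:47530139-47595341), a histone methyltransferase, measured 347 in NA MPPs and 350 in WT MPPs (log2 fold change -0.01, interval -0.37 to 0.36). Cul1 (chr6:47453398-47526139), a ubiquitin ligase scaffold, measured 745 and 740 (0.01, interval -0.19 to 0.21). On the other side, Zfp282 had a log2 fold change of -0.72 (adjusted p = 0.0601 by limma) and Zfp398 of -0.83 (adjusted p = 0.164 by limma), opposite in sign to Pdia4.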

How the data were processed

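RNA of 8 sorted MPP libraries was compared, 4 of NA mice and 4 of WT mice, grouped by their titles. Expression was quantified by the authors with RSEM, followed by DESeq2, and the submitters' processing notes also name bcl2fastq and the build mm10. Versions and strand use are not given in the sources used here. The deposited values are a normalised signal: gene counts divided by a size factor, since from 98.3% to 98.7% of the values below 100 in a library were whole multiples (within 0.01 read) of a step between 0.888 and 1.18, from which depth and reads were estimated. The cDNA was amplified without molecular identifiers, so floors cover counting error only.

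Genes that reached 10 normalised counts in 4 or more libraries were tested with limma 3.58.1 (R 4.3.3) on log2(normalised count + 1), with a variance trend and no covariates, and p-values were Benjamini-Hochberg adjusted over 11451 genes at a threshold of 0.05. The added 1 shrinks the change of low genes. The fit was tested on simulated data with 50 changed genes at each size. It recovered 14% of them at a log2 change of 0.5, 70% at 1 and 92% at 2. Unchanged genes made up 6.25% of its calls. In the simulation 200 of 11451 genes were changed, a smaller share than was called in the data. The adjusted threshold depends on that share, so these rates are not the recovery in the data. Genes that did not pass the test may still differ by small amounts. As nothing says that libraries are separate animals, p-values measure the spread between libraries, which may be technical. The alternatives changed the pseudocount, filter, scaling, variance trend, replicate block, depth class, GC trend and the libraries used.

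Members and lists were chosen with earlier results of these data known, in part from the tables of an earlier analysis. Values in every library are given for Pdia4, members passing the test, the 6 sensors and transcription factors and, beyond that rule and chosen after their values were seen, Pdia3, Tmx1, Sec61b, Sdf2l1 and Mbtps1. From the pathway list the 3 largest rises and falls that passed, Ppp1r15a, Trib3, Chac1 and Asns were named, as were the 5 genes most like Pdia4, by r, and its neighbours. Printed promoters follow the rule, and all ERSE matches were added to them. Symbols, exon lengths and gene positions came from GENCODE M21 (GRCm38), which named 93.8% of the rows above 0. Rows without a match held 0.779% of the summed values. Promoters came from RefSeq (GRCm38.p6).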

Additional observations from a re-analysis of the deposited data

Results flagged for a closer look

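In 5 of 76 groups of 4 values (38 genes in NA MPPs and in WT MPPs), the highest or lowest library stood apart from the other 3 by Dixon's test, where about 3.8 are due by chance at a level of 1 in 20. Tmx1 had 151.4 normalised counts in WT3 and 193.5 to 195.9 in the other WT libraries. Herpud1 had 765.4 in NA3 and 623.6 to 627.9 in the other NA libraries. Sdf2l1 had 30.5 in NA3, beside 7.09 to 10.3, and 10.2 in WT3, beside 4.44 to 5.33. Ssr1 had 759.9 in WT1 and 971 to 1015 in the other WT libraries. NA3 was also the highest NA library for 19 of the 37 genes other than Pdia4, and WT1 the lowest WT library for 15.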

How the results depend on the processing

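All 36 genes other than Pdia4 were refitted in 19 other ways. Of 683 values, 603 kept direction and call, 34 lost the call, 15 gained it and 31 changed sign. Hspa5 was called in all 19. Dnajc3 and Syvn1 lost the call only without the fourth libraries, Dnajb9 was called in 13 and Canx in 8. The cause of these changes was not tested.

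The number of these genes called higher (5) was 3 with no filter or no variance trend, 1 without the fourth libraries and 3 to 6 when each library was left out in turn. The number called lower (1, Creld2) was 0 with a pseudocount of 0.5, no filter, TMM scaling, no variance trend, the depth class, GC removal or without the fourth libraries, 2 with total-count scaling, and 0 to 1 with a library left out. Pathway-list genes called higher (10) were 6 with no variance trend, 1 without the fourth libraries and 6 to 13 with a library left out, and those called lower (8) were 5 with no filter, 15 with total-count scaling, 2 with no variance trend, 0 without the fourth libraries and 5 to 13 with a library left out. Of all genes, 1152 were higher and 901 lower, against 375 and 144 without the fourth libraries, 674 to 1196 and 456 to 1008 with a library left out (lowest without NA4), and 595 lower with no variance trend. Total-count scaling moved the median of all genes to -0.08, with 925 higher and 1314 lower (41.3% higher, beside 56.1%), and the median of the 36 genes to 0.01. The difference of Pdia4, 6.70 on the log2(normalised count + 1) scale, was 7.38 with a pseudocount of 0.5 and 4.84 with 5.

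Sign changes were of genes near 0. With total-count scaling the log2 fold change became -0.0097 for Derl1, -0.0070 for Hyou1 and -0.031 for Pdia3, and with TMM scaling 2.45e-05 for Hsp90b1. With the depth class as covariate it became 0.016 for Edem2, -0.0057 for Hyou1 and -0.0067 for Pdia3, with the GC trend removed 0.027 for Edem2, -0.055 for Erp44 and -0.024 for Pdia3, and without the fourth libraries 0.016 for Calr and 0.017 for Edem1. With each library left out in turn it ranged from -0.082 to 0.13 for Pdia3, from -0.084 to 0.30 for Txndc11, from -0.053 to 0.032 for Hsp90b1, from -0.14 to 0.28 for Hyou1, from -0.099 to 0.054 for Calr, from -0.18 to 0.10 for Edem1 and from -0.065 to 0.035 for Edem2.

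Library numbers were not taken as pairs in the main fit. Deviations of NA and WT libraries with the same number correlated at 0.087, 0.027, 0.013 and 0.158. NA1 and NA4 correlated best with their own number, and NA2 and NA3 with another. Whether equal numbers mark a shared batch was not tested. With a replicate block, 7 of the 36 genes were higher, Atf4 and Ddit3 among them, and 0 lower, 11 and 9 pathway-list genes were called, and of all genes 1145 were higher and 859 lower. DESeq2 and edgeR were not run, since fractional values remained after division by the step. At this depth, Hyou1 and Sdf2l1 were too low for a change to be settled.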
